A study of Homo sapiens with 4 samples.

Results

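The 10 main heterogeneous nuclear ribonucleoprotein (hnRNP) genes HNRNPA1, HNRNPA2B1, HNRNPC, HNRNPD, HNRNPDL, HNRNPH1, HNRNPK, HNRNPM, HNRNPU and PTBP1 were followed through RNA splice junctions in K562 cells, an erythroleukaemia line. They were taken by name and stand among 17665 genes with reads over annotated junctions. The SF3B1 K700E group had 2 libraries and the WT group, of wild-type SF3B1, had 2 libraries. The treatment text is the same for all 4 samples. It states that doxycycline at 1 µg/ml induced a modified allele and that harvest followed after 4 days. It does not say separately whether the WT cells carried an inducible allele or were given doxycycline, and it names no promoter or clone. RNA was taken from the chromatin fraction in buffers with 25 µM α-amanitin, an inhibitor of RNA polymerase II, and polyadenylated RNA was removed in 3 rounds, followed by removal of ribosomal RNA. The labels do not say that replicates were separate cultures, so the p-values measure only the spread between these libraries.

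HnRNPs bind nascent pre-mRNA as it leaves the polymerase, package it, and enhance or silence nearby splice sites. Many of them control their own amount through splice choices that add a premature stop codon or an intron downstream of the stop codon, which directs the mRNA to nonsense-mediated decay (NMD). SF3B1 is the subunit of the U2 snRNP that holds the branch-point region, and its K700E form is known to use cryptic acceptors a short way upstream of the usual ones.

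The stretches below are those whose use differs between protein forms or between coding and NMD transcripts. They were copied from GENCODE release 29 transcripts on GRCh38, 5′ to 3′ on the strand of the gene. Capitals mark the alternative stretch, and lower case gives 15 nt of the exons on each side in the named transcript.
HNRNPA2B1 36-nt exon of the B1 form, chr7:26197831-26197866, minus strand, HNRNPA2B1-201: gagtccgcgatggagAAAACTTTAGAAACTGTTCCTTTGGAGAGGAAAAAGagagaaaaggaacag
HNRNPA2B1 exon 8 of the reference transcript, 120 nt, chr7:26193575-26193694, minus strand, HNRNPA2B1-202: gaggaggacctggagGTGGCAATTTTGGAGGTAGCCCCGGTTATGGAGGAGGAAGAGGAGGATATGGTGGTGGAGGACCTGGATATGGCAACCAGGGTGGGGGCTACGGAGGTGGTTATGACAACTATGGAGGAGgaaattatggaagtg
HNRNPC 39-nt stretch of the C2 form, chr14:21230958-21230996, minus strand, HNRNPC-219: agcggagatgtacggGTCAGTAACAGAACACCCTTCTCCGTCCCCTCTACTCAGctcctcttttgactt
HNRNPD exon 2, 57 nt, chr4:82371528-82371584, minus strand, HNRNPD-201: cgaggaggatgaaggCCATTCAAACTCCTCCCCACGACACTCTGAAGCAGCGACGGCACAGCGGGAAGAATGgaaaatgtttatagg
HNRNPD exon 7, 147 nt, chr4:82356537-82356683, minus strand, HNRNPD-201: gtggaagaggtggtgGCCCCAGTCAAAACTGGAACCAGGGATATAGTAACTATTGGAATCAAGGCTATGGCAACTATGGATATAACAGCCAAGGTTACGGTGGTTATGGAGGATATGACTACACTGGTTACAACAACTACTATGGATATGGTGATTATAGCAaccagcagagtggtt
HNRNPM removable stretch, 117 nt, chr19:8465363-8465479, plus strand, HNRNPM-201: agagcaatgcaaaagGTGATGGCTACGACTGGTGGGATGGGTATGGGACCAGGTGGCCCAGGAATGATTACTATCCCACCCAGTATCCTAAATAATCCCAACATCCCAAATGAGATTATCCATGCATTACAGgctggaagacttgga
HNRNPK exon 6, 44 nt, chr9:83975462-83975505, minus strand, HNRNPK-204: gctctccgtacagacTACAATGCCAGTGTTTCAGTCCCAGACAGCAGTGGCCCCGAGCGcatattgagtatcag
PTBP1 exon 10 of the reference transcript, 34 nt, chr19:807869-807902, plus strand, PTBP1-201: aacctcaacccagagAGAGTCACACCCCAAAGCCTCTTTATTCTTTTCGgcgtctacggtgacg
All 8 lie in coding sequence. The HNRNPK and PTBP1 exons have lengths that are not multiples of 3, and in the annotation their skipping is found only in NMD transcripts. The other 6 keep the reading frame.

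Uniquely mapped junction reads numbered 4304213 and 5322414 in SF3B1 K700E and 3582592 and 3687513 in WT. SF3B1 K700E replicate 2 was the deepest. The labels call the cells epithelial. Of 12 erythroid markers 12 had reads, with a summed level of 1427 and 2195 CPM (reads scaled to the library total with its TMM factor) in SF3B1 K700E and 1653 and 2096 CPM in WT. Of 10 epithelial markers 6 had reads, with 58.5 and 84.8 CPM in SF3B1 K700E and 74.3 and 58.6 CPM in WT, and CDH1, ESRP1, GRHL2 and KRT5 were at 0. Summed lymphoid markers, nearly all PTPRC reads, were 1768 and 1532 CPM in SF3B1 K700E and 901 and 1203 CPM in WT. Of that list CD79A, MS4A1 and CD2 were at 0. Summed myeloid markers were 75.7 and 131 CPM in SF3B1 K700E and 163 and 133 CPM in WT, with CD14 and MPO at 0. The part of these markers in the results below was not tested. SF3B1 itself had 845 and 702 CPM in SF3B1 K700E and 897 and 1016 CPM in WT, a log2 change of -0.31 (edgeR adjusted p = 0.747). A junction count does not show which SF3B1 allele was expressed, so the genotype was not checked here.

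The hnRNP genes differed widely in level. Between genes, levels were compared as CPM over the introns of 1 reference transcript divided by the number of those introns. HNRNPA2B1 was highest, with 196 and 258 in SF3B1 K700E and 214 and 200.3 in WT. HNRNPA1 followed with 109.5 and 122 in SF3B1 K700E and 114 and 109 in WT. HNRNPU had 90.0 and 107 in SF3B1 K700E and 67.8 and 82.2 in WT, and HNRNPH1 had 71.4 and 80.6 in SF3B1 K700E and 68.5 and 72.9 in WT. HNRNPK, HNRNPDL and HNRNPD came next, and HNRNPM, HNRNPC and PTBP1 were lowest, the last with 23.9 and 27.2 in SF3B1 K700E and 23.6 and 22.3 in WT. In SF3B1 K700E the libraries of neighbours in this order overlapped from HNRNPDL downwards, and in WT they overlapped for HNRNPU and HNRNPH1, for HNRNPDL and HNRNPK, and for HNRNPC and HNRNPM.

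**Figure D1:**
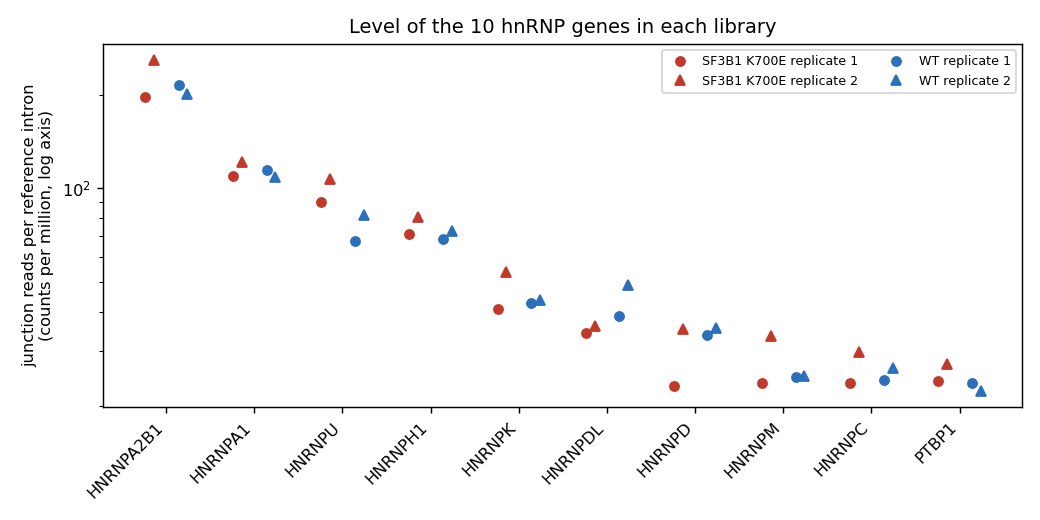
Reads per reference intron (CPM, log axis) of each gene in each library, SF3B1 K700E in red to the left of WT in blue, circles for replicate 1 and triangles for replicate 2. HNRNPA2B1 lies at 196 to 258 and PTBP1 at 22.3 to 27.2.

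None of the 10 gene totals passed the test between SF3B1 K700E and WT. A gene total is the sum of unique reads over all annotated junctions of a gene, and the call rule was an edgeR quasi-likelihood adjusted p under 0.05 over 10827 genes, which called 36 genes higher and 65 lower, or 0.933% of those tested. No member reached an unadjusted p under 0.05, and DESeq2 and limma called none either. The median log2 change was 0.12 over the members and 0.00 over all genes tested. The fitted change lay above 0 for 8 of 10 members, against 5460 of the 10827 genes tested. Without SF3B1 K700E replicate 2 it lay above 0 for 3 of 10 members. In bulk RNA fewer cells and less RNA per cell cannot be told apart.

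HNRNPU, the nuclear scaffold protein, had 1254 and 1464 CPM in SF3B1 K700E and 929 and 1134 CPM in WT. The groups did not overlap. The log2 change was 0.40 ± 0.22 (SE; 95% interval -0.10 to 0.89; n = 2 per group), with an edgeR adjusted p of 0.632. HNRNPDL, a paralogue of HNRNPD, had 256 and 265 CPM in SF3B1 K700E and 284 and 357 CPM in WT. These groups did not overlap either, with SF3B1 K700E below WT. Its log2 change was -0.30 ± 0.22 (SE; 95% interval -0.80 to 0.20), with an edgeR adjusted p of 0.754. HNRNPD, also known as AUF1 and a binder of AU-rich elements, had 213 and 327 CPM in SF3B1 K700E and 309 and 335 CPM in WT. SF3B1 K700E replicate 1 was the low library. PTBP1, the polypyrimidine tract binding protein, had 334 and 374 CPM in SF3B1 K700E and 322 and 311 CPM in WT, with no overlap and a log2 change of 0.16 (edgeR adjusted p = 0.908). A lack of overlap between groups this small is frequent without any true difference. Its share over all gene totals was not counted.

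The splicing repressors HNRNPA2B1 and HNRNPA1 had log2 changes of 0.14 and 0.05. HNRNPA2B1 had 2097 and 2714 CPM in SF3B1 K700E and 2259 and 2101 CPM in WT. HNRNPA1 had 1008 and 1122 CPM in SF3B1 K700E and 1059 and 1004 CPM in WT. In both genes the groups overlapped. The poly(C) binder HNRNPK, the G-tract binder HNRNPH1, the poly(U) binder HNRNPC and HNRNPM had log2 changes between 0.07 and 0.24, with overlapping groups in each. Multiply mapped reads made up 10.3% of HNRNPH1 junction reads and 1.93% of those of HNRNPA1, which have near-identical copies in the genome, so their totals are less certain. Among 28 tested genes of a list of 30 other hnRNP and related genes, 0 passed the edgeR test and the median log2 change was 0.07. Without adjustment, 1 of them was higher and 1 lower at an edgeR p under 0.05, against 397 higher and 697 lower of 10827 genes.

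**Figure D2:**
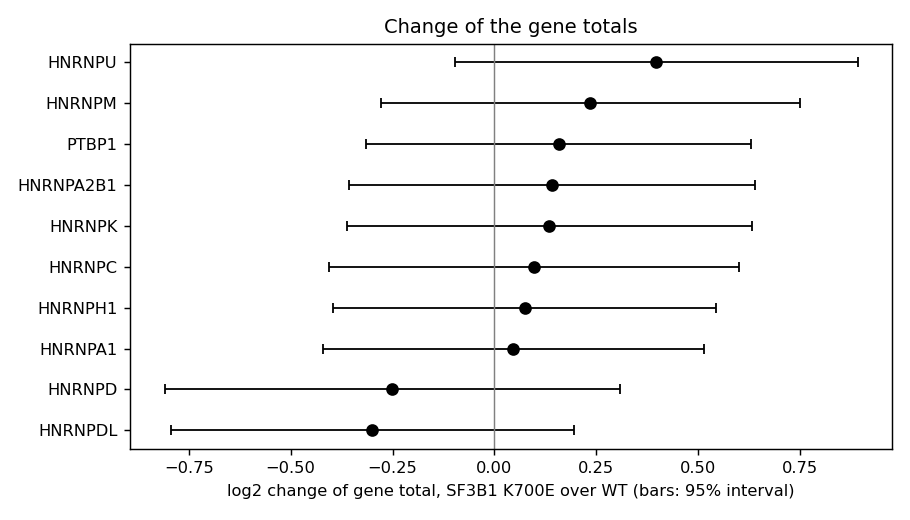
Log2 change of each gene total, SF3B1 K700E over WT, with its 95% interval from the edgeR fit (n = 2 per group). All 10 intervals include 0, and the fitted values run from -0.30 for HNRNPDL to 0.40 for HNRNPU.

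Reads were spread unevenly along the genes. In HNRNPA2B1 the last reference intron, 156 nt long, had 85 and 116 reads in SF3B1 K700E and 73 and 66 in WT, or 0.112 and 0.0974 of the median intron of the gene in SF3B1 K700E and 0.120 and 0.109 in WT. In HNRNPDL the last intron, of 1153 nt, had 0.119 and 0.0820 of the gene median in SF3B1 K700E and 0.167 and 0.117 in WT. In both genes annotated NMD junctions lie at that 3′ end. They also lie there in HNRNPA1, HNRNPD and HNRNPU. The ratio for the last intron of HNRNPA1 was 0.396 and 0.252 in SF3B1 K700E and 0.228 and 0.395 in WT. That of HNRNPD was 0.351 and 0.256 in SF3B1 K700E and 0.244 and 0.256 in WT, and that of HNRNPU, given below, was higher. A link between these junctions and the ratio was not tested. In HNRNPK the ratio for the last intron was 0.331 and 0.304 in SF3B1 K700E and 0.186 and 0.217 in WT, with no overlap. In HNRNPU it was 0.629 and 0.752 in SF3B1 K700E and 0.810 and 0.943 in WT, again with no overlap and in the other direction. HNRNPH1 likewise had 0.927 and 1.00 in SF3B1 K700E and 1.18 and 1.11 in WT, with no overlap. In the other 7 genes the groups overlapped. With so few libraries per group, complete separation often arises without any true difference. How often the last intron separated the groups over all genes was not counted. None of these differences was called: no junction of the 167 tested in the members passed when each was fitted against its gene, a rule that called 0.011% of 117973 junctions.

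**Figure D3:**
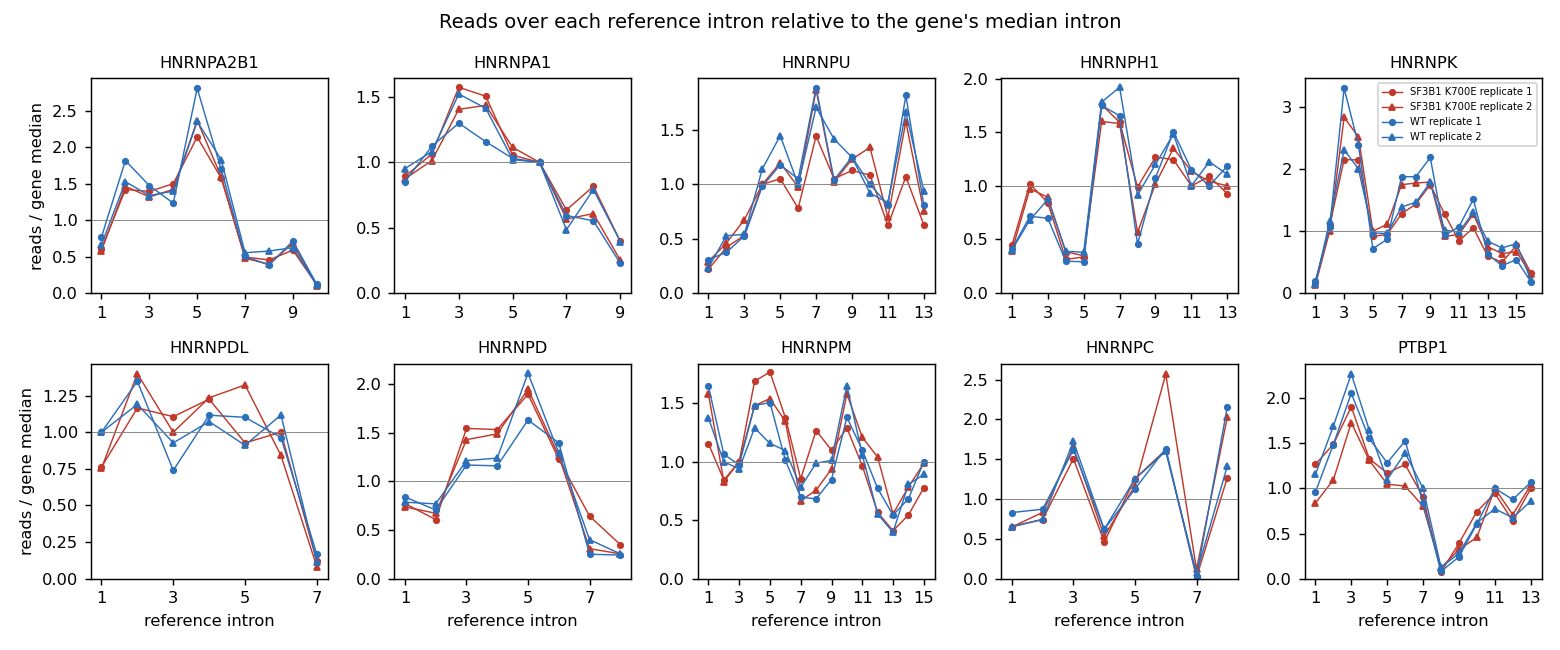
Reads over each reference intron divided by the median intron of the same gene in the same library, with introns numbered from the 5′ end; red is SF3B1 K700E and blue is WT. The last intron falls to 0.0974 to 0.120 in HNRNPA2B1.

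Reference introns took 92.8% of all junction reads of the members. Annotated alternative junctions took 5.51%, junctions found only in NMD transcripts 0.876%, and unannotated junctions 0.771%. Of 389 junctions with any read, 184 had at least 10. The 76 member junctions tested for alternative acceptor use gave 0 calls with edgeR, where the rule called 0.137% of 23366 junctions. The limma fit called 0 of them. At an unadjusted edgeR p under 0.05, 3 of the 76 were higher and 0 lower, against 574 higher and 167 lower of all 23366. The 82 tested for alternative donor use also gave 0 calls, where 0.0087% of 22976 were called, and limma called 0. At that p, 2 of the 82 were higher and 0 lower, against 357 higher and 143 lower of all 22976. The choices below are therefore described per library. For a single share, 2 libraries against 2 cannot give an exact permutation p below 0.33. A lack of overlap between the groups is therefore frequent without any true difference. How often it arises over all junctions, exons or shares was not counted.

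HNRNPA2B1 makes the A2 protein and the longer B1 protein, which contains the 36-nt exon printed first above. The junction into that exon had 169 and 206 reads in SF3B1 K700E and 121 and 87 in WT, and the junction that skips it had 459 and 695 in SF3B1 K700E and 467 and 404 in WT. The junction out of it had 291 and 357 reads in SF3B1 K700E and 198 and 171 in WT. Inclusion, from the mean of both flanking junctions, was 33.4% and 28.8% in SF3B1 K700E and 25.5% and 24.2% in WT. The SF3B1 K700E libraries both lay above the WT libraries, by 6.27 percentage points on average. The acceptor fit gave the junction a log2 change of 0.36, not called (edgeR unadjusted p = 0.308).

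The glycine-rich exon 8 of HNRNPA2B1 was skipped by a junction that is not in the authors' annotation, with 75 and 91 reads in SF3B1 K700E and 55 and 66 in WT. That was 16.7% and 13.8% of the 2 junctions from its donor in SF3B1 K700E and 15.2% and 16.4% in WT. The groups overlapped. From the same donor, an unannotated acceptor 16 nt upstream of exon 8 (junction chr7:26193711-26195846) had 5 and 8 reads in SF3B1 K700E and 0 and 0 in WT. Summed over libraries this was 13 of 1121 reads from the donor in SF3B1 K700E, or 1.16% (95% Wilson interval 0.679% to 1.97%). In WT it was 0 of 764 reads, which allows up to 0.393% when 3 counts over the group are the floor. The junction was not called (edgeR adjusted p = 0.431). It met the rule of at least 10 reads through SF3B1 K700E reads alone, so its contrast with WT carries that selection. Intervals and floors cover counting error only.

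Over all members, unannotated acceptors 10 to 30 nt upstream of an annotated one were seen at 12 junctions in 7 genes, with 13 and 23 reads in SF3B1 K700E and 7 and 5 in WT. Per 100000 annotated reads of the members this was 43.7 and 52.2 in SF3B1 K700E and 28.5 and 19.5 in WT. Without the HNRNPA2B1 site it was 26.9 and 34.0 in SF3B1 K700E and 28.5 and 19.5 in WT, and the groups overlapped. The other site with at least 10 reads, 22 nt upstream in HNRNPDL, had 4 and 6 reads in SF3B1 K700E and 5 and 1 in WT, with overlapping groups.

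In HNRNPA1, skipping of the 117-nt coding exon 2 by an unannotated junction (chr12:54280823-54281794) had 13 and 7 reads in SF3B1 K700E and 1 and 1 in WT. Its share of both junctions from the donor was 3.23% and 1.24% in SF3B1 K700E and 0.272% and 0.279% in WT. The groups did not overlap, and the log2 change of 2.82 was not called (edgeR adjusted p = 0.637). This junction too reached at least 10 reads only through SF3B1 K700E. The 156-nt exon of the longer A1-B form was included at 1.94% and 3.74% in SF3B1 K700E and 3.59% and 4.71% in WT. In HNRNPU, an unannotated junction that skips the 129-nt exon 9 had 5 and 8 reads in SF3B1 K700E and 1 and 0 in WT, and it was not called. The exon 9 junction lies outside the naming rule and was picked once its values were known. Skipping of the 264-nt exon 7 of HNRNPU, also unannotated, had 9 and 12 reads in SF3B1 K700E and 9 and 4 in WT. Its share was 1.89% and 1.62% in SF3B1 K700E and 2.69% and 1.12% in WT, with overlapping groups.

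HNRNPC makes the C1 and C2 proteins, and the 39-nt stretch printed above is present in C2 only. Donor choice decides between them, and C2 took 25.0% and 26.0% of the reads of both donors in SF3B1 K700E and 26.3% and 26.7% in WT. The SF3B1 K700E libraries lay just below the WT libraries. The 95% Wilson interval of SF3B1 K700E replicate 1, on 184 reads, was 19.3% to 31.7%, far wider than the gap between groups. Downstream, an acceptor 3 nt away from that of the reference transcript took 212 and 451 reads in SF3B1 K700E and 177 and 189 in WT, while the reference junction had 2 and 14 in SF3B1 K700E and 2 and 6 in WT.

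HNRNPD makes several protein forms by combining exons 2 and 7. Exon 2 was included at 81.9% and 86.2% in SF3B1 K700E and 92.9% and 84.3% in WT, and exon 7 at 47.3% and 43.1% in SF3B1 K700E and 45.6% and 41.8% in WT. In both exons the groups overlapped. In HNRNPH1, exon 5, of 139 nt, was included at 62.5% and 78.2% in SF3B1 K700E and 62.1% and 62.3% in WT. SF3B1 K700E replicate 2 was the high library, and replicate 1 was almost level with WT.

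In HNRNPM a 117-nt stretch inside a coding exon can be removed as an intron by an annotated junction. That junction had 81 and 105 reads in SF3B1 K700E and 32 and 40 in WT. Relative to the mean of the junctions on either side, removal was 57.2% and 49.2% in SF3B1 K700E and 32.2% and 42.8% in WT. The groups did not overlap and differed by 15.7 percentage points, and the junction was not called against its gene (edgeR unadjusted p = 0.0699). Its longest overhang was 36 nt, which is also the length of the exon piece that follows it. HNRNPM exon 3, of 53 nt, was included at 66.4% and 79.5% in SF3B1 K700E and 83.4% and 80.1% in WT, lower in SF3B1 K700E mainly through replicate 1.

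The 78-nt alternative exon of PTBP1, which lengthens the linker between RNA-binding domains, was included at 83.1% and 65.0% in SF3B1 K700E and 73.3% and 78.0% in WT. PTBP1 represses the 34-nt exon printed above in its own pre-mRNA. Its skipping junction had 8 and 13 reads in SF3B1 K700E and 5 and 2 in WT, or 17.8% and 21.3% of the choice in SF3B1 K700E and 21.7% and 9.09% in WT. The groups overlapped for both exons. HNRNPK exon 6 was skipped at 8.61% and 4.91% in SF3B1 K700E and 8.99% and 7.41% in WT, also with overlap.

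**Figure D4:**
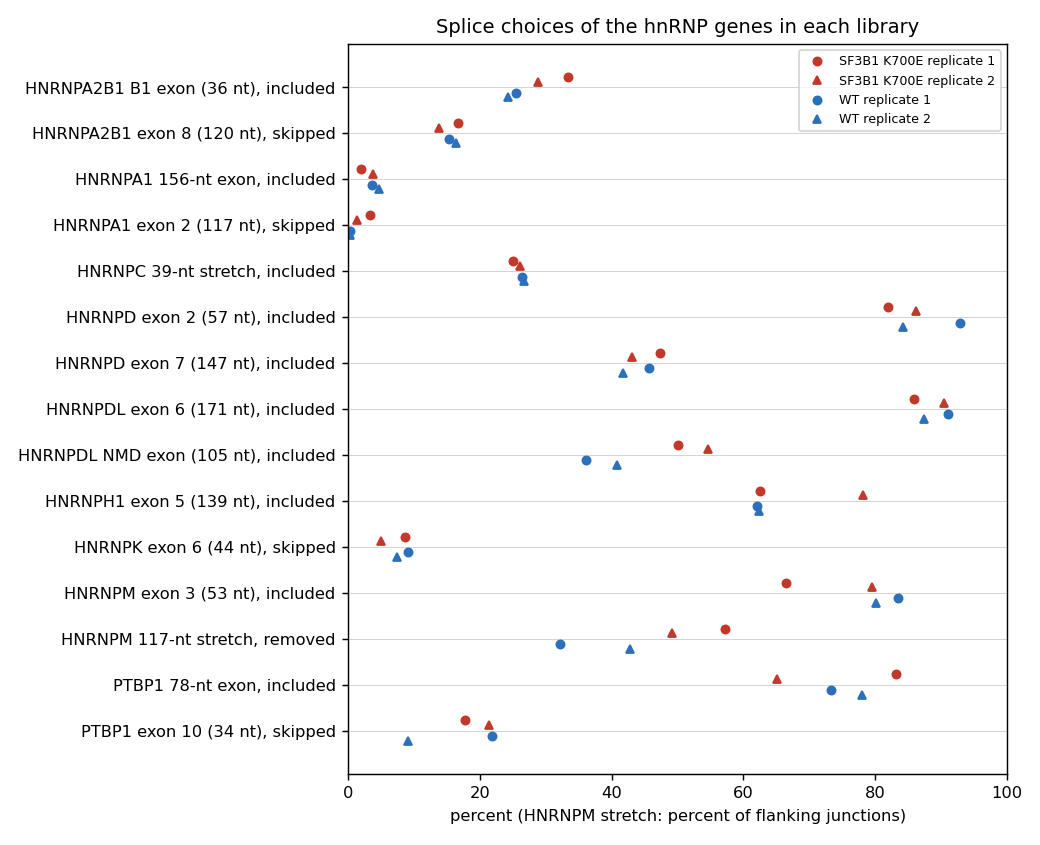
Percent of reads supporting each named choice in each library, SF3B1 K700E in red above WT in blue, circles for replicate 1 and triangles for replicate 2. The HNRNPDL exon of NMD transcripts lies at 50.0% and 54.5% in SF3B1 K700E and at 36.1% and 40.8% in WT, whereas the HNRNPC stretch lies at 25.0% to 26.7% in all libraries.

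HNRNPDL had the highest NMD share of the members in each library. Its 105-nt exon (chr4:82425563-82425667), which has no annotated coding sequence, is joined on both sides by junctions found only in NMD transcripts. The junction into it had 28 and 27 reads in SF3B1 K700E and 16 and 20 in WT, and the junction that skips it had 18 and 15 in SF3B1 K700E and 23 and 21 in WT. The junction out of it had 8 and 9 reads in SF3B1 K700E and 10 and 9 in WT. Inclusion, from the mean of both flanking junctions, was 50.0% and 54.5% in SF3B1 K700E and 36.1% and 40.8% in WT. The groups did not overlap and differed by 13.8 percentage points. The sides of the exon were unequal. Of the reads shared with the skipping junction, the junction into it took 60.9% and 64.3% in SF3B1 K700E and 41.0% and 48.8% in WT. This was a difference of 17.7 percentage points. As a share of all reads from the donor, that junction differed by 20.6 percentage points. The junction out of the exon was taken as a share of all reads at its acceptor. It averaged 33.4% ± 3.70 in SF3B1 K700E and 30.2% ± 0.214 in WT (SD, n = 2 each), a difference of 3.23 percentage points. The difference in inclusion therefore came mostly from the junction into the exon. The acceptor fit gave the junction into the exon a log2 change of 0.59, not called (edgeR unadjusted p = 0.203). Its share against the skipping junction rested on 39 to 46 reads per library. In the same libraries the gene total was lower in SF3B1 K700E, as given above, without passing the test. A link between exon inclusion and the gene total was not tested.

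As a share of all annotated junction reads of the gene, NMD-only junctions of HNRNPDL made up 3.65% and 3.14% in SF3B1 K700E and 2.80% and 2.44% in WT. HNRNPU followed with 2.74% and 1.79% in SF3B1 K700E and 1.97% and 2.36% in WT, most of it from exons beyond the last reference exon. HNRNPH1 had 0.799% and 1.18% in SF3B1 K700E and 1.11% and 1.89% in WT. HNRNPA2B1 had 0.662% and 0.506% in SF3B1 K700E and 0.555% and 0.701% in WT, all from an acceptor at its 3′ end that took 37.9% and 32.7% of its donor's reads in SF3B1 K700E and 35.0% and 40.5% in WT. HNRNPM had no such read, and HNRNPC had 0 and 0 in SF3B1 K700E and 1 and 1 in WT. Of the 8 members tested, 4 were fitted above 0 and the median log2 change was -0.05, against 0.11 over all genes. The edgeR rule called 0% of 1558 genes, with unadjusted p under 0.05 for 52 higher and 22 lower genes, and the smallest adjusted p of a member was 0.929.

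Unannotated junctions made up at most 1.97% of the reads of any member. HNRNPU had 1.97% and 1.46% in SF3B1 K700E and 1.20% and 1.18% in WT, with no overlap. Its most read one joins chr1:244848857-244854381 and had 36 and 35 reads in SF3B1 K700E and 6 and 19 in WT. HNRNPA1 had 0.473% and 0.203% in SF3B1 K700E and 0.115% and 0.150% in WT, also with no overlap, and exon 2 skipping gave most of its reads in SF3B1 K700E. The 9 members tested gave 0 calls, where the edgeR rule called 0.0148% of 6754 genes. Their median log2 change was 0.21, close to the 0.20 over all genes, and 6 of 9 were fitted above 0. How many of the 6754 genes separated the groups in this share was not counted.

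**Figure D5:**
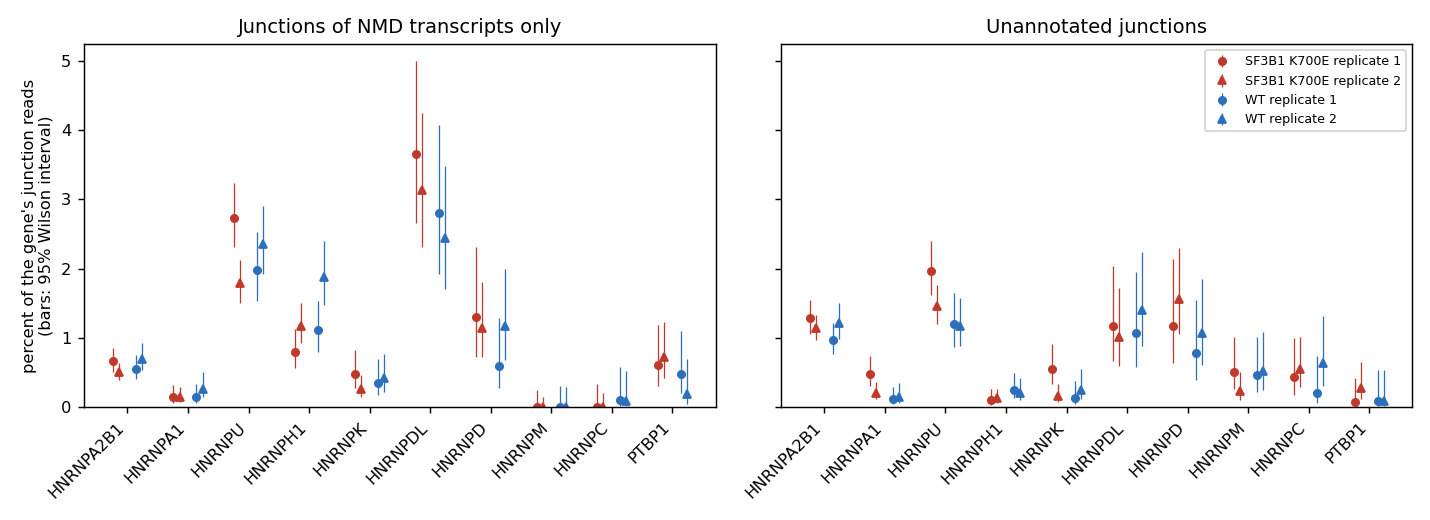
Percent of the junction reads of each gene over junctions found only in NMD transcripts (left) and over unannotated junctions (right), with 95% Wilson intervals; SF3B1 K700E is red and left of WT in blue. HNRNPDL is highest on the left at 2.44% to 3.65%, and HNRNPU reaches 1.97% on the right.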

How the data were processed

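Per the run logs, STAR 2.7.10a was used by the authors to place trimmed read pairs on GRCh38.p12 with GENCODE release 27 in the index and release 22 added at mapping. The deposited junction counts are uniquely and multiply mapped reads with no normalization, and the deposited overhang column gives the longest overhang. Introns were assigned to genes with GENCODE release 29, which holds 99.7% of 188468 annotated junctions, and 3.98% of annotated reads, in introns of more than 1 gene, were left out. Gene totals were tested with edgeR 4.0.16 (filterByExpr, TMM, quasi-likelihood), and junctions of at least 10 reads and shares with diffSpliceDGE, all with Benjamini-Hochberg adjustment over the whole table. The edgeR log2 change of a junction is relative to its cluster. The fits were tested on simulated data with a preset spread. They recovered 40% of gene totals changed by a log2 of 1. Of junctions changed by a log2 of 2, they recovered 31% for acceptors and 36.5% for donors, with median fitted changes of 1.06 and 1.04. Of NMD and unannotated shares changed by a log2 of 2, they recovered 96% and 91.5%. A lack of calls therefore does not exclude changes of such sizes in gene totals or junctions. For the shares, recovery at the spread and read counts of the members themselves was not tested. Reads over NMD-only junctions of the 8 members tested ran from 28 in HNRNPA1 and PTBP1 to 411 in HNRNPU, summed over the 4 libraries. DESeq2 1.42.0, limma 3.58.1, other normalization, filters, multiply mapped reads, replicate blocks and leaving out each library were tried. The reference transcript was the principal coding one with the longest coding sequence.

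The members and lists were chosen with earlier results of these data known. Named junctions were, per gene, up to 3 annotated ones outside the reference transcript and up to 2 unannotated ones with the most reads, every NMD-only junction and every acceptor 10 to 30 nt upstream, each with at least 10 reads over the 4 libraries. Of these 44 junctions, those that define a known form or carry most reads are described. The fit of each annotated junction against its gene was added after seeing the data. Unspliced RNA was not analysed here.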

Additional observations from a re-analysis of the deposited data

How the results depend on the processing

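No member gene or junction passed the threshold under any alternative of any fit. Of 120 alternative values of the member gene totals 114 kept their direction. The other 6 left out a library. Without 1 library the log2 change was -0.019 to 0.13 for HNRNPA1, -0.043 to 0.32 for HNRNPA2B1, -0.084 to 0.28 for HNRNPC, -0.0086 to 0.17 for HNRNPH1, -0.051 to 0.32 for HNRNPK and -0.58 to 0.032 for HNRNPD, each low end without SF3B1 K700E replicate 2 and each high end without SF3B1 K700E replicate 1. It was 0.0027 to 0.45 for HNRNPM and 0.087 to 0.25 for PTBP1, with the ends from the same libraries. It was -0.45 to -0.10 for HNRNPDL and 0.26 to 0.57 for HNRNPU, with the ends from the WT libraries: the values nearest 0 came without WT replicate 2 for HNRNPDL and without WT replicate 1 for HNRNPU. Over all genes, 101 gene totals were called, 217 with DESeq2, and 0 to 317 when a library was left out, 0 without SF3B1 K700E replicate 2. Alternative acceptor calls numbered 32, against 15 with limma and 5 to 12 without a library. Alternative donor calls numbered 2, against 0 with multiply mapped reads and 0 to 0 without a library. Junctions called against their gene numbered 13, against 6 with limma and 0 to 9 without a library. The 1 call for unannotated junctions became 0 under RLE size factors, the minimum of 30 reads, multiply mapped reads, the overhang of 20 nt and without any 1 library. With replicate number as a block the calls were 136 gene totals, 19 acceptors, 0 donors, 2 junctions against their gene and 0 unannotated shares. Samples with the same number correlated at -0.23 in their deviations and the labels tie no numbers together, so the block is not a pairing by design. With the numbers crossed, 460 gene totals, 36 acceptors, 2 donors and 0 unannotated shares were called. For the HNRNPA2B1 exon of the B1 form the difference in share was 4.00 to 8.55 percentage points without 1 library. It was 11.4 to 16.2 for the HNRNPDL exon and 10.4 to 21.1 for the HNRNPM stretch. In these choices the groups did not overlap with all libraries in, so leaving 1 out could not reverse the direction. The other choices were not tried in this way. The cause of these differences was not tested. The share of the junction into the HNRNPDL exon, against the skipping junction, rests on 39 to 46 reads per library. Its 95% Wilson intervals run from 46.5% to 73.6% and from 49.2% to 77.0% in SF3B1 K700E. In WT they run from 27.1% to 56.6% and from 34.3% to 63.5%.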
